A study of Medicago ruthenica with 9 samples.

Results

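The miR1527 family had the most names of any miRNA family in the small RNA table of *Medicago ruthenica* leaves. It held 52 of 595 names (8.74%) and 45 of 543 sequences, and the next largest family, miR2586, held 29 names. A name was a member if the number written directly after miR or MIR was exactly that of miR1527, so the choice used names and no measured value. Seedlings were 4 weeks old when they were split into groups. Control plants (CK) got water every 3 days, drought-stressed plants (DS) got none for 15 days, and rewatered plants (RW) got none for 15 days and were sampled 2 days after rewatering. The labels name no mutation or transgene in any group. Each group had 3 libraries, labelled as biological replicates, and the number of plants behind a library is not stated in the labels.

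Plant miRNAs are cut from the arms of hairpin precursors by DICER-LIKE enzymes and guide ARGONAUTE proteins to complementary mRNAs, which are then cleaved or held from translation. Most conserved plant miRNAs are 21 nt long, whereas plant small RNAs of 24 nt are best known as siRNAs that direct DNA methylation of repeats. The prefix gma stands for *Glycine max* (soybean): all 52 names refer to the soybean precursor of miR1527, and the target of this miRNA in *M. ruthenica* was not analysed here. In these names p5 or p3 is the precursor arm. The digit before ss counts the bases that differ from the precursor, and the text after ss lists them. For example, 1ss22CA is 1 substitution at position 22, from C to A.

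The names split unevenly between the arms, with 34 p3 names, 17 p5 names and 1 name of the annotated mature miRNA with 4 bases added at its right end (gma-miR1527_R+4_1ss8AT). The arm names were not exclusive, since 7 sequences were listed under both a p5 and a p3 name. Of the 45 sequences, 41 were 24 nt long, 2 were 23 nt and 2 were 21 nt. Sequences of 24 nt made up 91.1% of the family and 40.6% of the other 498 sequences, and the family supplied 16.9% of the 243 sequences of 24 nt in the table. The first base was A in 57.8% of the members (26 sequences), G in 8, T in 6 and C in 5. Among the other sequences of 24 nt, A was first in 60.9%. The median GC content was 45.8% (range 37.5 to 66.7%), against 41.7% in the other sequences of 24 nt. The names fell on 50 assembled transcripts, of which 11 held both a p5 and a p3 name.

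Of the 12 most abundant sequences, 9 are shown here to let their seeds be compared, with the seed (bases 2 to 8) in capitals, and the other 3 are shown further on by their place in the 41-nt stretch. Members that share a seed stand next to each other, and the 45 sequences held 30 seeds in all.
gma-MIR1527-p3_1ss22CA (same sequence as gma-MIR1527-p5_1ss22CA): gTTTCCGCtatcgggccacccacc
gma-MIR1527-p5_2ss1GA22CA: aTTTCCGCtatcgggccacccacc
gma-MIR1527-p3_1ss18TA (same sequence as gma-MIR1527-p5_1ss18TA_2): aAGCCGGTtttgtaaggatgagtt
gma-MIR1527-p3_2ss18TA22GC: aAGCCGGTtttgtaaggatgactt
gma-MIR1527-p3_1ss19TA: cAAGCCGGttttgtaaggatgagt
gma-MIR1527-p3_2ss19TA23GC: cAAGCCGGttttgtaaggatgact
gma-MIR1527-p5_1ss13CA: aTCGGGCCacccaccatttatgtc
gma-MIR1527-p3_1ss23CG: aAGAGTCCcacatcggataggaga
gma-miR1527_R+4_1ss8AT: tAACTCATccttacaaaaccggct
The seed AGCCGGT was shared by 7 sequences and AAGCCGG, the same bases moved by 1 position, by 3. The 2 sequences with the seed TTTCCGC differed only at their first base.

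Many members were overlapping pieces of the same run of bases. Undoing the substitutions written in the names left 26 distinct strings, and these joined without a mismatch into 4 stretches of 59, 53, 41 and 26 nt. The stretches are strings joined from the members, not sequences read from a genome, and the shortest overlaps used in the joins were 10, 9, 17 and 23 nt. They are shown because every member lies in 1 of them, with capitals at positions covered by at least 2 members where most of the covering signal carried another base than the precursor. Position 4 of the 59-nt stretch (G4T), covered by 1 sequence, is therefore in lower case.
59-nt stretch: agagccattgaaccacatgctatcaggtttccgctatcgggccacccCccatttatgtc
53-nt stretch: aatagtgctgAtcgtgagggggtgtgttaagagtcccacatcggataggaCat
41-nt stretch: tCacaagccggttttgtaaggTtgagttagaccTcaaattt
26-nt stretch: taactcaAccttacaaaaccggcttg
The 41-nt stretch held 29 names (25 sequences, 23 p3 and 6 p5 names). The 59-nt stretch held 12 names (10 sequences), the 53-nt stretch 8 names (7 sequences) and the 26-nt stretch 3 names (3 sequences). The whole 26-nt stretch was the reverse complement of positions 4 to 29 of the 41-nt stretch, and 5 transcripts held names of both.

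**Figure D1:**
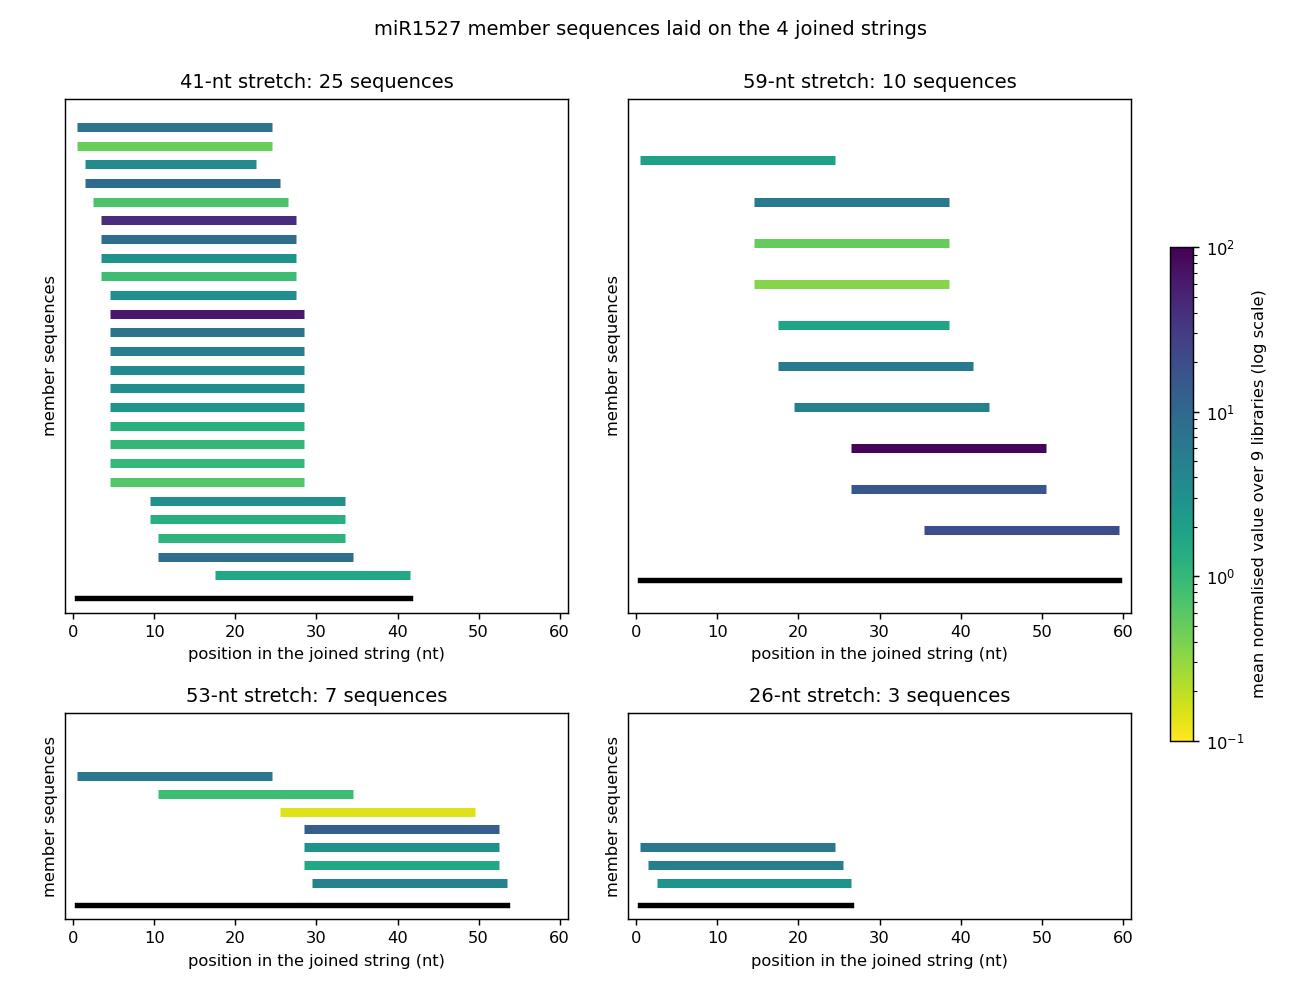
Each bar is 1 of the 45 member sequences, placed by its position (nt) in 1 of the 4 joined strings (black), and its colour is the mean normalised value over 9 libraries on a log scale. In the 41-nt stretch 11 sequences start at position 5 and 4 at position 4, and the 2 sequences that start at position 27 of the 59-nt stretch include the most abundant member.

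Within the 41-nt stretch, 11 sequences started at position 5 and held 50.7% of its signal (45.5 to 60.2% by library), and 4 started at position 4 and held 29.1%. In the 59-nt stretch the 2 sequences starting at position 27 held 72.3% of the signal (59.2 to 83.3% by library). The following members of the 41-nt stretch are shown with the bases that differ from the precursor in capitals, from the leftmost start to the rightmost.
gma-MIR1527-p3_2ss2CT22TA: tTacaagccggttttgtaaggAtg
gma-MIR1527-p3_2ss1CT21TA: TacaagccggttttgtaaggAtga
gma-MIR1527-p3_1ss19TA: caagccggttttgtaaggAtgagt
gma-MIR1527-p3_1ss18TA: aagccggttttgtaaggAtgagtt
gma-MIR1527-p3_1ss4CT: aagTcggttttgtaaggttgagtt
gma-MIR1527-p3_1ss13TA: ggttttgtaaggAtgagttagacc
gma-MIR1527-p5_2ss12TA24TC: gttttgtaaggAtgagttagaccC
The names place the substitution at 22, 21, 19, 18, 13 or 12, and all of these were the same base of the stretch. Counted from 1 at the 5′ end of the 41-nt stretch, this was T22A, carried by 21 of the 25 sequences that cover the position and by 95.5% of their signal (at least 85.5% in each library). The 4 without it were gma-MIR1527-p3_2ss17AG18AG, gma-MIR1527-p3_1ss4CT, gma-MIR1527-p3_1ss6CT and gma-MIR1527-p3_2ss18AG19AG. The 26-nt stretch carried A8T in 3 of 3 sequences, and its position 8 is the complement of position 22 of the 41-nt stretch. C48A was carried by 3 of 3 sequences of the 59-nt stretch that cover it, and C51G by 4 of 4 sequences of the 53-nt stretch. Only 4 names had no substitution (gma-MIR1527-p3_1, gma-MIR1527-p5_1, gma-MIR1527-p3_2 and gma-MIR1527-p5_2), and all 4 were in the 59-nt stretch.

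The values are normalised read values, made by the authors with 1 factor per library, and the table summed to between 1237470 and 1718280 per library. The libraries did not reach equally low. The smallest listed values above 0 ran between 0.652 and 1.55 (CK), 3.94 and 4.21 (DS) and 2.30 and 3.09 (RW). A low member could therefore be listed in CK and stand at 0 in DS. In each library 98.0 to 99.3% of the values above 0 lay within 0.1 of a whole multiple of 1 step. The step, which is what 1 read would be worth, lay between 0.252 and 0.310 in the CK libraries, between 0.788 and 0.893 in DS and between 0.460 and 0.617 in RW. The smallest listed value was 2.5 steps in CK replicate 1 and 4.67 to 5 steps in the other 8 libraries. Neither the labels nor the methods say whether a value listed at 0 stands for no read or for a few reads. In these steps the table summed to between 3992625 and 5761723 (CK), 1580927 and 1769189 (DS) and 2030950 and 3224246 (RW). The family summed to 1615 to 2037, 260 to 424 and 545 to 1023 steps in the 3 groups, so its values in DS rest on the fewest reads.

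Most members were rare. The mean over the 9 libraries was at least 10 for 6 sequences and under 10 for 39, with a median of 3.17, against 2.81 for the other 202 sequences of 24 nt. Of those 202, 9 had a higher mean than the most abundant member. The 3 most abundant members together made up 45.1 to 58.8% of the summed family level in each library.

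gma-MIR1527-p3_1ss22CA, of the 59-nt stretch, had the highest mean (94.0). Its values were 162, 98.9 and 90.6 in CK, 70.2, 81.7 and 56.2 in DS and 127, 68.2 and 90.7 in RW. Each DS library was below each CK library, whereas RW overlapped both. The fitted log2 difference of DS vs. CK, on the scale of log2(value + 1), was -0.72 ± 0.38 (SE), with a limma adjusted p of 0.297. Without CK replicate 1, the highest library, the difference was -0.46.

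gma-MIR1527-p3_1ss18TA, of the 41-nt stretch, was second with a mean of 64.0. It reached 49.6, 98.9 and 62.6 in CK, 70.9, 62.3 and 32.1 in DS and 79.6, 52.2 and 67.3 in RW. All 3 groups overlapped, and the difference of DS vs. CK was -0.36 ± 0.43 (log2, limma adjusted p = 0.673). It was -0.02 without DS replicate 3 and -0.09 without CK replicate 2. gma-MIR1527-p3_1ss19TA, its neighbour cut 1 base further left, had 37.8, 74.7 and 38.5 in CK, 42.6, 35.4 and 34.8 in DS and 63.1, 17.1 and 26.5 in RW. Its groups also overlapped (DS vs. CK -0.34 ± 0.52 on the log2 scale, limma adjusted p = 0.727), and without CK replicate 2 the difference was -0.03.

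gma-MIR1527-p5_1ss13CA, the rightmost member of the 59-nt stretch, showed values of 31.8, 21.1 and 17.1 in CK, 11.8, 15.2 and 9.82 in DS and 28.5, 25.6 and 21.6 in RW. The DS libraries were below all the others. Its log2 difference was -0.85 ± 0.47 in DS vs. CK and -0.99 ± 0.47 in DS vs. RW, with limma adjusted p of 0.318 and 0.352. gma-MIR1527-p5_2ss1GA22CA, which differs from the most abundant member by its first base, had 41.5, 13.9 and 20.6 in CK, 9.46, 6.74 and 5.36 in DS and 17.9, 7.46 and 17.3 in RW. Each DS library lay below each CK library, and the log2 difference was -1.58 ± 0.61 (limma adjusted p = 0.188).

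**Figure D2:**
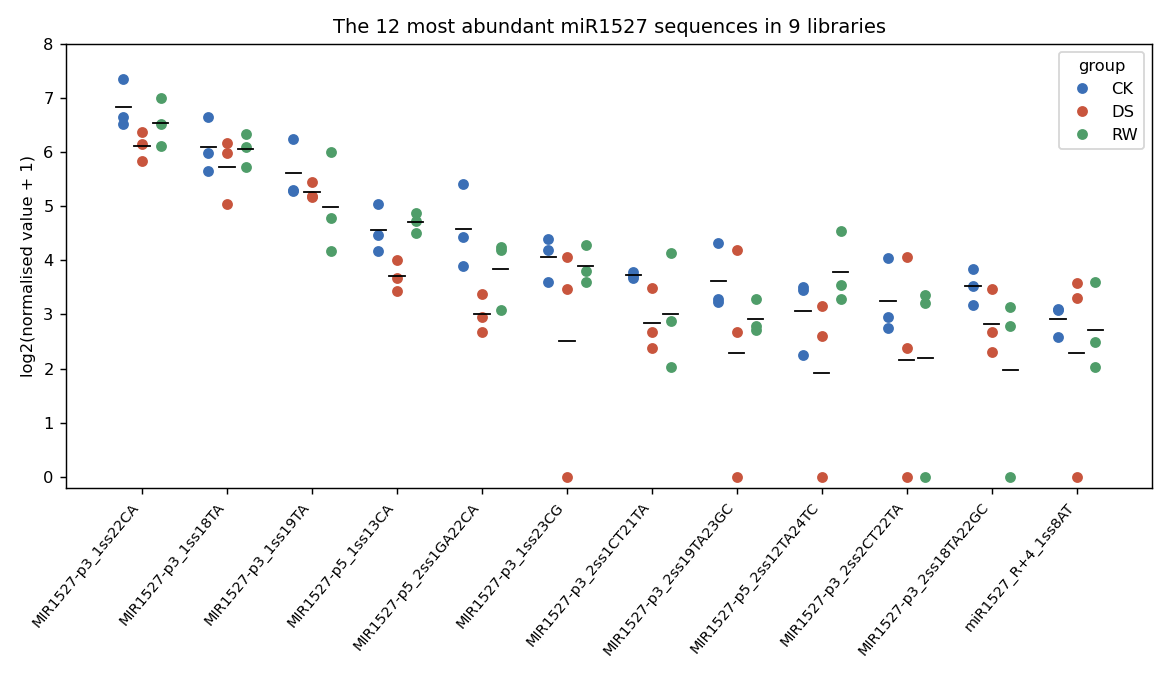
Each point is 1 library (3 per group) of 1 of the 12 most abundant sequences, as log2(normalised value + 1), and the short line is the group mean. The DS points of gma-MIR1527-p3_1ss22CA, gma-MIR1527-p5_1ss13CA, gma-MIR1527-p5_2ss1GA22CA and gma-MIR1527-p3_2ss1CT21TA sit below all their CK points, and points at 0 are libraries where the sequence is listed at 0.

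gma-MIR1527-p3_1ss23CG, the leading member of the 53-nt stretch, was listed at 0 in DS replicate 3 and had 15.8 and 10.1 in the other DS libraries. Its CK values were 20.1, 11.2 and 17.4 and its RW values 12.9, 11.2 and 18.5, so the groups overlapped. gma-MIR1527-p5_2ss12TA24TC reached its highest value in RW, with 8.74, 10.7 and 22.2 in RW, 7.88, 5.06 and 0 in DS and 10.4, 9.92 and 3.77 in CK. DS and RW did not overlap, and the log2 difference of DS vs. RW was -1.87 ± 0.88 (limma adjusted p = 0.352). Without DS replicate 3, listed at 0, it was -0.91, and it was -3.00 with a pseudocount of 0.1 and -1.06 with a pseudocount of 5.

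The mature-arm member gma-miR1527_R+4_1ss8AT, of the 26-nt stretch, had 4.96, 7.44 and 7.55 in CK, 0, 10.95 and 8.93 in DS and 4.60, 11.2 and 3.09 in RW. gma-MIR1527-p5_1ss7AT, shifted from it by 1 base, had 4.44, 1.86 and 4.53 in CK, 4.73, 0 and 12.5 in DS and 9.20, 5.33 and 4.32 in RW. Neither had a pair of groups that did not overlap. gma-MIR1527-p3_1ss11AG, at the other end of the 53-nt stretch, had 6.78, 4.65 and 3.77 in CK, 3.94, 10.95 and 8.93 in DS and 4.60, 5.33 and 8.64 in RW. It was the only tested member with a positive difference in DS vs. CK (0.49 ± 0.65 on the log2 scale, limma adjusted p = 0.693), and its groups overlapped. The difference was 0.24 without DS replicate 2 and 0.87 without DS replicate 1.

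gma-MIR1527-p3_2ss1CT21TA, of the 41-nt stretch and also named gma-MIR1527-p5_2ss1CT21TA, had 11.7, 12.1 and 12.8 in CK, 10.2, 4.21 and 5.36 in DS and 16.6, 6.40 and 3.09 in RW. Its DS values were below its CK values in every library (log2 difference -0.88 ± 0.68, limma adjusted p = 0.483), and RW spanned both. gma-MIR1527-p3_2ss14AT18TA, also of the 41-nt stretch, had 4.70, 8.99 and 6.54 in CK, 3.94, 4.21 and 0 in DS and, in RW, 6.44 in replicate 1 and 0 in the other libraries. DS lay below CK here as well. gma-MIR1527-p3_2ss19GT22CG, at the right end of the 53-nt stretch, had 9.91, 7.13 and 6.29 in CK, 3.94, 0 and 4.46 in DS and 6.90, 4.26 and 0 in RW, again with DS below CK. In each of these last 2 members 1 DS library was listed at 0.

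In 3 further tested members the groups overlapped in all comparisons. gma-MIR1527-p3_2ss19TA23GC had 8.35, 18.9 and 8.80 in CK, 17.3, 0 and 5.36 in DS and 8.74, 5.86 and 5.55 in RW. gma-MIR1527-p3_2ss3GA18TA had 5.48, 7.75 and 7.04 in CK, 6.31, 4.21 and 0 in DS and 12.9, 0 and 4.94 in RW. gma-MIR1527-p5_1ss12CT, of the 59-nt stretch, had 10.4, 7.44 and 3.27 in CK, 3.94, 0 and 7.14 in DS and 4.60, 9.06 and 0 in RW. All 3 were listed in every CK library and at 0 in 1 DS library.

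gma-MIR1527-p3_2 and gma-MIR1527-p3_1 (the latter also named gma-MIR1527-p5_1) are 2 sequences that share 21 bases and have the same value in every library. The values were 21.1, 8.68 and 10.3 in CK, 0, 4.21 and 7.14 in DS and 0, 2.66 and 0 in RW. Different sequences with the same values occurred in 9 sets of 21 names in the table, counting sets above 0 in at least 4 libraries, and neither the labels nor the methods say how they arise. The 3 names are described here as 1 measurement, and both sequences enter the sums given below. The value was lower in RW than in CK in every library, and in DS as well. No RW library reached 5, so these names entered the test through CK and DS libraries alone. The log2 difference was -3.12 ± 0.98 in RW vs. CK (limma adjusted p = 0.109) and -1.95 ± 0.98 in DS vs. CK (limma adjusted p = 0.293). Without DS replicate 1, listed at 0, the latter was -1.04. With that library left out, the limma adjusted p in RW vs. CK was 0.0480. It was 0.0413 when all values under the highest of the libraries' smallest values were raised to it, and the log2 difference was then -1.37. In the other settings that tested these names the limma adjusted p stayed over 0.05, and it was 0.358 without CK replicate 1. The difference in RW vs. CK rests on RW libraries listed at 0. It was -5.37 with a pseudocount of 0.1 and -1.61 with a pseudocount of 5.

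gma-MIR1527-p3_1ss4CT, which lacks T22A, was listed at 0 in all 3 DS libraries. It had 2.35, 2.17 and 10.8 in CK and 5.98, 6.40 and 3.09 in RW. The DS libraries list nothing under 3.94, and no fold is given against a group listed at 0. The limma adjusted p was 0.167 in DS vs. CK and 0.205 in DS vs. RW. With a pseudocount of 0.1 in place of 1 the limma adjusted p were 0.0349 and 0.0354.

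No member passed the test in any comparison. The limma test covered the 339 names that reached 5 or more in 3 or more libraries, and 25 of the 52 family names (21 sequences, 48.1%) were among them, against 57.0% of the names in the table and 47.6% of the other names of 24 nt. At a Benjamini-Hochberg adjusted p under 0.05, 0 of 25 family names were called in DS vs. CK, where 5.31% of all tested names were called. It was 0 of 25 against 2.36% in DS vs. RW, and 0 of 25 against 5.31% in RW vs. CK. At an unadjusted limma p under 0.05 the family had 2, 1 and 3 names in the same order, against 19.5%, 14.2% and 15.6% of all tested names. In DS vs. CK these were gma-MIR1527-p5_2ss1GA22CA and gma-MIR1527-p3_1ss4CT, and in DS vs. RW gma-MIR1527-p3_1ss4CT. The 3 names in RW vs. CK were those with the shared values described above. The p-values set each difference against a spread pooled over the 3 groups and drawn towards a trend over all tested names. With 3 libraries a group and differences of this size and SE, the test does not show that the groups were alike.

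Without passing the test, most of the tested members had lower values in DS than in CK. In DS vs. CK 24 of 25 names had a log2 difference below 0, against 65.2% of all tested names and 69.7% of the other tested names of 24 nt. The median was -1.10, against -0.36 for all tested names and -0.57 for the other tested names of 24 nt. In 12 of 25 names (9 of 21 sequences) every DS library was below every CK library, where 18.3% of all tested names were, and in 0 of 25 was every DS library above, where 9.73% of all tested names were. These 12 names are not independent, since some share a sequence and gma-MIR1527-p3_1, gma-MIR1527-p3_2 and gma-MIR1527-p5_1 share 1 set of values. For these shared values 1 DS library reached 5, and the CK libraries alone met the filter. Of the 12 names, 6 were listed at 0 in at least 1 DS library. No DS library reached 5 for gma-MIR1527-p3_1ss4CT, gma-MIR1527-p3_2ss14AT18TA and gma-MIR1527-p3_2ss19GT22CG. They entered the test through CK and RW libraries alone, so their part in these counts is not evidence that DS was lower. The 10 family names (7 sequences) above 0 in all 9 libraries do not depend on values listed at 0. Of these, 6 names (4 sequences) were lower in DS without overlap, against 15.6% of all names above 0 throughout, and 0 were higher, against 15.1%. The 4 sequences were gma-MIR1527-p3_1ss22CA, gma-MIR1527-p5_1ss13CA, gma-MIR1527-p5_2ss1GA22CA and gma-MIR1527-p3_2ss1CT21TA. The 6 names come from 2 stretches and are not independent, and in whole leaves a change in the make-up of the tissue and a change within cells cannot be told apart.

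**Figure D3:**
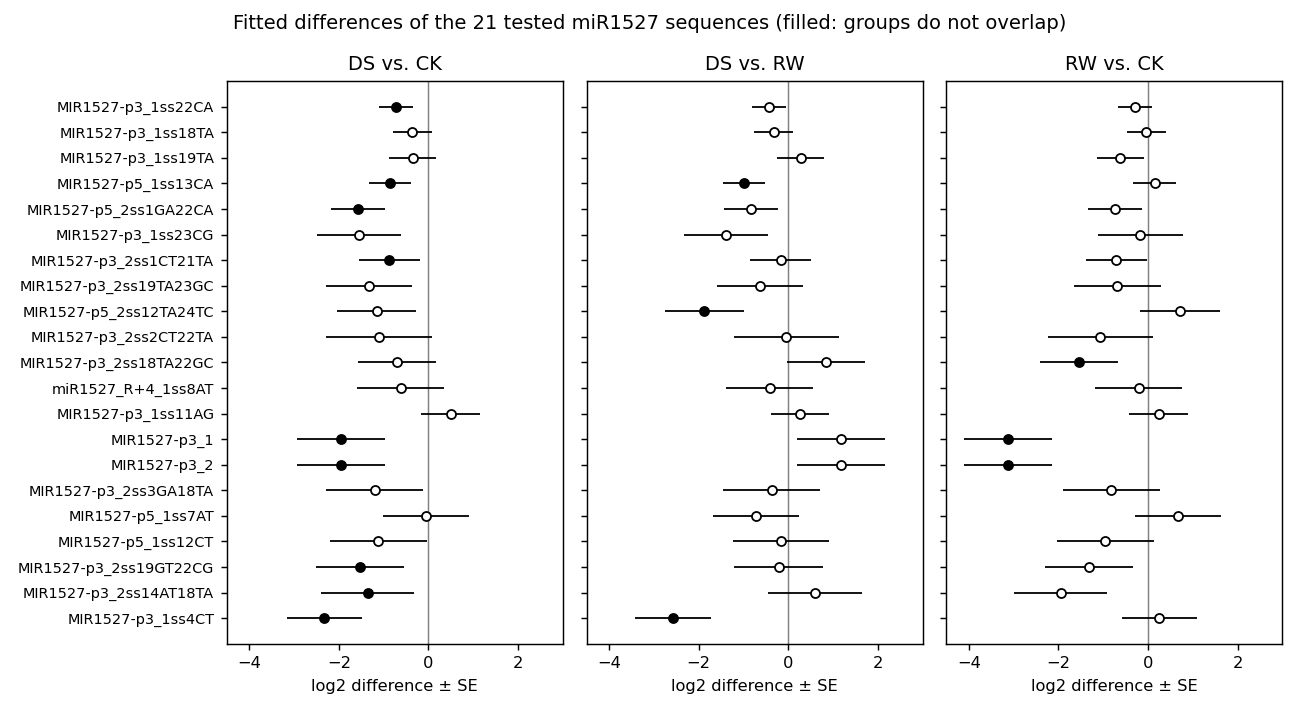
Fitted log2 differences (log2(value + 1), limma, bars show the SE) of the 21 tested sequences in the 3 comparisons, ordered by mean level, with filled points where the groups of 3 libraries do not overlap. In DS vs. CK 20 of 21 points lie below 0, and no point passed the adjusted threshold of 0.05.

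In DS vs. RW 18 of 25 names had a log2 difference below 0, against 58.7% of all tested names and 71.6% of the other names of 24 nt. The median was -0.32, against -0.16 for all tested names and -0.65 for the other names of 24 nt. Every DS library was below every RW library for 3 of 25 names (gma-MIR1527-p5_1ss13CA, gma-MIR1527-p5_2ss12TA24TC and gma-MIR1527-p3_1ss4CT), against 9.14% of all tested names, and above for 0 of 25, against 6.19%. The member gma-MIR1527-p3_1ss4CT entered the test through CK and RW libraries alone, so its place here is not evidence that DS was lower. In RW vs. CK 20 of 25 names were below 0, against 58.7% and 43.1%, and the median was -0.69, against -0.11 for all tested names and 0.20 for the other names of 24 nt. RW was below CK without overlap for 4 of 25 names, against 10.9%, and above for 0 of 25, against 10.3%. These 4 were the 3 names with shared values and gma-MIR1527-p3_2ss18TA22GC, with 8.09, 13.3 and 10.6 in CK and 7.82, 5.86 and 0 in RW (log2 difference -1.55 ± 0.87, limma adjusted p = 0.470). Without RW replicate 3, listed at 0, that difference was -0.56. No RW library reached 5 for the 3 names with shared values. They entered the test through CK and DS libraries alone, so their place here is not evidence that RW was lower. No test compared the comparisons with each other. Each pair of comparisons shares 1 group of libraries.

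The summed level of the family, with each of the 45 sequences counted once, was 531, 504 and 406 in CK, 334, 305 and 232 in DS and 471, 305 and 336 in RW. All DS sums were below all CK sums, and RW overlapped both groups. The means (± SD, n = 3) were 481 ± 65.8 for CK, 290 ± 52.6 for DS and 371 ± 88.2 for RW. The family was 0.0284 to 0.0408%, 0.0165 to 0.0262% and 0.0178 to 0.0362% of the table in the 3 groups. The 7 sequences above 0 in all libraries summed to 246 to 342 (CK), 153 to 219 (DS) and 182 to 337 (RW), with RW again overlapping both. No test was made of a sum over the members.

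The sum of the other 202 sequences of 24 nt was 2353 to 2840 (CK), 2441 to 2894 (DS) or 2934 to 3266 (RW), so CK and DS overlapped there. Without its 3 most abundant sequences it was 1971 to 2562 (CK), 1640 to 1831 (DS) or 2203 to 2309 (RW), and CK and DS no longer overlapped. The difference between the family and these sequences was not tested.

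**Figure D4:**
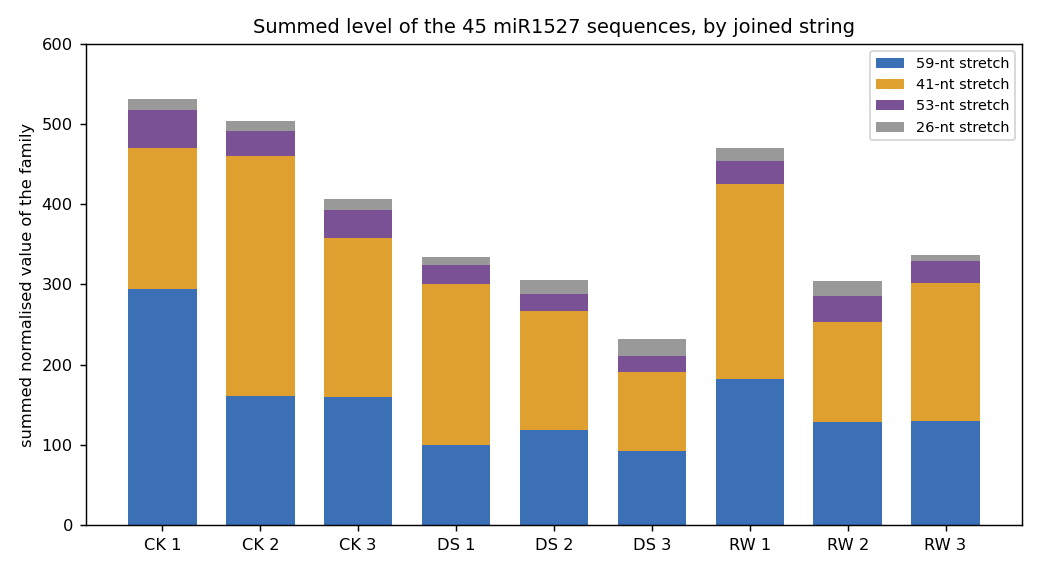
Bars show the summed normalised value of the 45 miR1527 sequences in each of the 9 libraries, divided by the joined string a sequence lies in. The DS bars reach 232 to 334 and the CK bars 406 to 531, and the 59-nt and 41-nt stretches make up most of every bar.

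The 59-nt stretch, with 39.8% of the family signal, summed to 295, 160 and 159 in CK, 99.3, 119 and 92.8 in DS and 182, 128 and 130 in RW, and all DS libraries were below all CK and all RW libraries. Counting the shared values of gma-MIR1527-p3_2 and gma-MIR1527-p3_1 once, its sums were 149 to 274 (CK), 85.7 to 115 (DS) or 125 to 182 (RW), and every DS sum was still below the others. The 53-nt stretch (7.82% of the signal) summed to 47.5, 31.6 and 34.7 in CK, 23.7, 21.1 and 19.6 in DS and 29.5, 33.0 and 27.1 in RW. Here too DS lay below both other groups. This sum holds members listed at 0 in DS, where no library lists less than 3.94. Its only member above 0 in all libraries, gma-MIR1527-p3_1ss11AG, had means of 5.07 (CK), 7.94 (DS) and 6.19 (RW). In the 41-nt stretch (48.5%) the groups overlapped, with 176, 300 and 199 in CK, 202, 148 and 98.2 in DS and 243, 125 and 172 in RW. The 26-nt stretch (3.81%) also overlapped, with 13.6, 12.7 and 13.3 in CK, 9.46, 16.9 and 21.4 in DS and 16.6, 19.2 and 7.40 in RW. Whether the stretches differ in their response was not tested.

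The CK libraries, which had the lowest smallest listed values, showed the most members. Within DS the number did not follow the smallest value in every library, with 18 sequences in replicate 3 (smallest value 4.17) and 22 in replicate 2 (4.21). Above 0 were 40, 35 and 39 of the 45 sequences in CK, 23, 22 and 18 in DS and 26, 26 and 21 in RW. Among the other sequences of 24 nt the share above 0 was 63.9 to 84.2% (CK), 37.1 to 40.6% (DS) or 54.0 to 59.4% (RW), against 77.8 to 88.9%, 40.0 to 51.1% and 46.7 to 57.8% of the family. At or over a common floor of 4.21, the highest of the libraries' smallest values, were 23, 25 and 20 members in CK, 16, 22 and 18 in DS and 24, 20 and 15 in RW, so that the groups overlapped. The family sum over this floor was 360 to 491 (CK), 232 to 307 (DS) or 287 to 464 (RW), and CK and DS did not overlap.

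**Figure D5:**
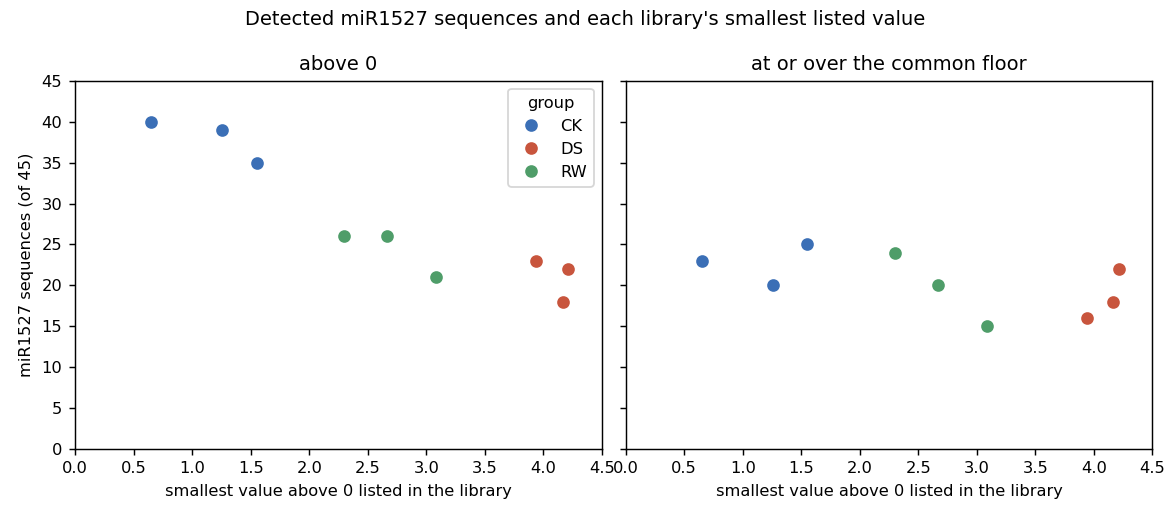
Points are the 9 libraries, with the library's smallest listed value above 0 on the x axis and the number of miR1527 sequences (of 45) above 0 (left) or at or over the common floor of 4.21 (right) on the y axis. On the left CK lies at 35 to 40 and DS at 18 to 23, while on the right CK lies at 20 to 25 and DS at 16 to 22.

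The 24 sequences outside the test had means of 0.145 to 3.76 and were listed in few DS libraries. Listed at 0 in all 3 DS libraries were 12 of the 45 sequences, in all 3 RW libraries 9 and in all 3 CK libraries 1. Absence from a whole group was not counted for the other sequences of 24 nt. Only 37.1 to 40.6% of those were above 0 in a given DS library, so values at 0 in DS were not particular to the family. Above 0 only in CK were 2 sequences (gma-MIR1527-p3_1ss3AT and gma-MIR1527-p5_1ss24GA, up to 3.39), which is below the lowest value that any DS library lists. Only in RW was 1 sequence (gma-MIR1527-p3_2ss3AG17CT, 3.20 in RW replicate 2), and in DS none of the 45. gma-MIR1527-p3_2ss17AG18AG, a 21-nt member without T22A, reached 11.7 and 9.26 in RW replicates 2 and 3, was at 0 in RW replicate 1 and lay at 2.48 to 2.87 in CK. In DS it stood at 4.73 in replicate 1 and at 0 in the others, so only 2 libraries exceeded 5.

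Among the rare members of the 53-nt stretch, gma-MIR1527-p3_2ss8CT23CG was 4.70, 6.20 and 3.77 in CK, at 0 in DS and, in RW, 12.3 in replicate 2 and 0 in the other libraries. gma-MIR1527-p3_2ss2CT22TA, of the 41-nt stretch, had 5.74, 15.5 and 6.79 in CK, 15.8, 4.21 and 0 in DS and 8.28, 0 and 9.26 in RW, with overlapping groups. gma-MIR1527-p3_1ss13TA, which shares its sequence with gma-MIR1527-p5_1ss13TA, was 1.76 to 3.13 in CK and, outside CK, above 0 only in DS replicate 1 (4.73). gma-MIR1527-p3_2ss17GA18TA was 1.57 to 2.52 in CK and 5.33 in RW replicate 2, and gma-MIR1527-p3_2ss1AG18TA was 1.51 to 1.86 in CK and 4.21 in DS replicate 2. Both were at 0 in the remaining libraries.

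Sequences of other large families of the table could also be joined into a few stretches. In miR2586, 25 sequences gave 23 strings and 5 stretches after the substitutions were undone, and in miR2608, 13 sequences gave 9 strings and 2 stretches. In miR5205 (13 sequences), miR5249 (9) and miR5281 (9), 3 stretches each were left, and in miR5281 the substitutions of 1 name could not be undone. The highest mean of a member was 94.0 in miR1527, 27.2 in miR2586, 12.7 in miR2608, 19.4 in miR5205, 11.5 in miR5249 and 5.95 in miR5281. The miR2586 sum was 111 to 196 (CK), 55.6 to 103 (DS) or 120 to 167 (RW), so that DS lay below CK in every library there as well. The miR2608 sum was 25.9 to 60.8 (CK), 29.2 to 73.2 (DS) or 38.9 to 81.4 (RW), with overlapping groups. The miR5249 sum was 36.0 to 43.0 (CK), 14.2 to 23.6 (DS) or 21.2 to 34.1 (RW), with CK above both other groups, and the groups overlapped in miR5205 and miR5281.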

How the data were processed

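Small RNA libraries were made from about 5 µg of total RNA of leaves. Adapter dimers, junk reads, common RNA families and repeats were removed by the authors with ACGT101-miR, who matched the rest to miRBase 22.0 precursors and assembled transcripts, and multiplied the read numbers of each library by 1 factor. The deposited values are this signal, and how the factor was chosen and the program's version are not given in the sources used here. A name on several lines was used once. Values plus 1 were tested on the log2 scale by limma 3.58.1 under R 4.3.3 (mean-variance trend, 1 fit of 3 groups, Benjamini-Hochberg within each comparison, threshold 0.05), after a test on simulated data. The simulated levels were raised above those of the data, so that test does not cover values near 0. The methods' t-test was not used with 3 libraries a group. The count-based tests planned as alternatives were not run, because the values were deposited as a signal and the smallest listed value, mostly about 5 steps of 1 read, kept whole reads from passing the check for recovered counts. The depth is given in the report. Named members are the 12 most abundant sequences, tested members whose groups do not overlap, and those the paper names, whose values had been seen in its tables. Chosen after their values were seen were gma-MIR1527-p3_1ss11AG, gma-MIR1527-p3_2ss3GA18TA and gma-MIR1527-p5_1ss12CT, and members above 0 in 1 group and those without a substitution or without T22A are named for that. The members and lists were chosen with earlier results of these data known. No other columns of per-sample values were used.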

Additional observations from a re-analysis of the deposited data

How the results depend on the processing

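In most of the settings tried no family name was called, and the filter of a setting changed how many family names were tested. A pseudocount of 0.1 called 1 name each in the comparisons of DS with CK and with RW (gma-MIR1527-p3_1ss4CT, listed at 0 in DS), and raising low values to the highest of the libraries' smallest values called 3 names in RW vs. CK, which share 1 set of values. Unadjusted p under 0.05 gave 2, 1 and 3 names. Leaving out each library in turn gave 0 names in both comparisons of DS and 0 to 3 in RW vs. CK, where 3 came without DS replicate 1. Without CK replicate 3, RW replicate 1 or RW replicate 2, gma-MIR1527-p3_1ss4CT was not among the tested names. With each library left out, calls over all names ranged from 0 to 23 (DS vs. CK), 0 to 14 (DS vs. RW) or 5 to 22 (RW vs. CK). Counting each of the 52 names raised the mean family sums to 699, 431 and 549 in CK, DS and RW. Counting the 2 sequences with the same values once, an alternative chosen after seeing the data, gave 467, 287 and 370. Values under the common floor set to 0 lowered the mean number of sequences seen in CK to 22.7. With each library of a group left out, the mean sums were 455 to 518 (CK), 269 to 320 (DS) or 321 to 404 (RW), and the mean numbers of sequences 37 to 39.5, 20 to 22.5 and 23.5 to 26. The replicate block called 0 of the family's names in each comparison. Deviations of libraries with the same replicate number correlated at -0.154 to 0.0579, and those of libraries with different numbers at -0.137 to 0.187. These values show no sign of pairing by number but cannot exclude it. Upper-quartile scaling moved the median of all tested names by 0.11 in DS vs. CK, by 0.20 in DS vs. RW and by -0.11 in RW vs. CK (log2). Why a setting moved a call was not tested. Reads in DS, the shallowest group, limit what can be said of members listed there at 0.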

Other observations

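gma-MIR1527-p5_2ss1GA22CA and gma-MIR1527-p3_1ss22CA start at the same base and differ only in it, so their ratio within a library does not depend on how the library was scaled. The first was 25.6, 14.1 and 22.8% of the second in CK, 13.5, 8.25 and 9.52% in DS and 14.1, 10.9 and 19% in RW, and all DS ratios were below all CK ratios. The closest of these were 13.5% in DS replicate 1 and 14.1% in CK replicate 2. In DS gma-MIR1527-p5_2ss1GA22CA had 9.46, 6.74 and 5.36, where 1 read would be worth 0.788 to 0.893, so the DS ratios rest on few reads. The pair was chosen after its values had been seen. The ratio of the neighbours gma-MIR1527-p3_1ss19TA and gma-MIR1527-p3_1ss18TA ran from 61.4 to 76.3% (CK), 56.8 to 108% (DS) or 32.7 to 79.2% (RW), with overlapping groups. The 26-nt stretch amounted to 4.24 to 7.73% of the complementary 41-nt stretch (CK), 4.69 to 21.8% (DS) or 4.30 to 15.4% (RW), also with overlap.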
